A study of Sus scrofa with 14 samples.

Results

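The nuclear compartments of greater omentum (GOM) and of the upper layer of backfat (ULB) were compared over 7 Hi-C libraries, which are 7 of the 14 samples in the series; the other 7 are RNA-seq libraries of the same groups. GOM is a visceral fat depot that hangs in the abdominal cavity, and ULB is a subcutaneous depot under the skin of the back. Both depots were taken from the same 4 female pigs, aged 2 years and untreated, so that the depots share animals. In GOM each breed had 2 libraries, whereas in ULB the wild boar had 2 and the Bama pig had 1 (replicate 2). The wild boars had been caught young and kept in captivity; they are lean, and the Bama pig is a small Chinese breed that stores much fat. For Hi-C, the nuclei were taken from the floating adipocyte layer of cross-linked tissue, whereas RNA was extracted from the whole sample.

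A genome-wide contact map shows that chromosomes fold into an A compartment, where most transcribed genes lie, and a B compartment of mostly silent chromatin. The first principal component (PC1) of the contact pattern gives every 20 kb bin a value that is positive in A and negative in B. PC1 has no unit, its size is not comparable between chromosomes, and the sign is the compartment. The SD of PC1 was 15.9 on chromosome 18 and 39 on chromosome 1. Genes and runs are ranked below by raw PC1 difference, so their order across chromosomes carries this limit. A bin was called GOM-A when its PC1 was above 0 in all 4 GOM libraries and below 0 in all 3 ULB libraries, and ULB-A in the opposite case. Autosomes other than 10 were used, since on chromosome 10 PC1 changed sign as a whole block between libraries. Of 109830 bins, 997 met the rule, of which 492 were GOM-A (0.448% of bins) and 505 were ULB-A (0.46%). These PC1 values chose the members, so they are given as a description.

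Fat depots differ in the embryonic origin of their cells, and regional transcription factors mark this origin. The omentum is also covered by mesothelium, an epithelium-like sheet that backfat lacks. Of the genes with a start site in a member bin and a called expression difference, the 2 with the largest fold change in each direction are WT1 and NIPAL1 (A in GOM) and IRX1 and PHGDH (A in ULB). The 200 bases before each start site are shown (RefSeq, Sscrofa11.1, 5′ to 3′), because these start sites met the rule on PC1 signs and have a called expression difference. CG dinucleotides, which read the same on both strands, are in capitals.
WT1 chr2:28411267-28411466 (+ strand): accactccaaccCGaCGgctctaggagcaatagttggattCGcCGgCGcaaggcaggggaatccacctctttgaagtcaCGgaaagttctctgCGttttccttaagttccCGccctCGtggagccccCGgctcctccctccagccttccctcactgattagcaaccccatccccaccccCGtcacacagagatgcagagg
NIPAL1 chr8:37936612-37936811 (+ strand): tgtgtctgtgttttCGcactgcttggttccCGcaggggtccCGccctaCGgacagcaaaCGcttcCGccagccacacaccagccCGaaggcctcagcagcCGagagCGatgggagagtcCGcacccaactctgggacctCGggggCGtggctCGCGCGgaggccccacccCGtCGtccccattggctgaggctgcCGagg
IRX1 chr16:77701090-77701289 (- strand): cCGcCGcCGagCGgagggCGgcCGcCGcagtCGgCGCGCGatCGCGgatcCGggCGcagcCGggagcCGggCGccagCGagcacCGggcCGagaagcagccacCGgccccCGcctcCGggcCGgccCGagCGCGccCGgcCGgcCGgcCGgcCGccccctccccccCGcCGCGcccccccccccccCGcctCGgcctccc
PHGDH chr4:101478145-101478344 (- strand): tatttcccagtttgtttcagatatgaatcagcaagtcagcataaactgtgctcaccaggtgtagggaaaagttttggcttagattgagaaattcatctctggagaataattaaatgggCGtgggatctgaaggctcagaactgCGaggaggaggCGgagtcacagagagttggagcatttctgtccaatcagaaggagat
The windows hold 11, 18, 38 and 3 CG dinucleotides in this order, and their GC contents are 59.5%, 68.5%, 88.5% and 44%. Among 18321 such windows of RefSeq protein-coding genes on these autosomes the median is 10 CG, and 94.4% hold at least 1. As many CG as in the IRX1 window occur in 1.5% of windows, and as many as in the PHGDH window in 81.1%. The windows of both directions thus range from CG-poor or middling to CG-rich.

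The bins with opposite signs in the depots covered 19.94 Mb, 0.908% of the 2196.42 Mb examined. GOM-A bins made up 9.84 Mb and ULB-A bins 10.1 Mb, so that 49.3% of the length was A in GOM. To set the background, the rule was applied to each of the 35 ways to divide the 7 libraries into 4 and 3. The depots gave the largest length of the 35 (exact permutation test, one-sided p = 0.0286, the smallest p this design can give). The other 34 ways gave 0.56 to 12.74 Mb, with a median of 1.51 Mb, and the parting of wild boar from Bama pig libraries gave 3.44 Mb. The length between depots was 1.57 times the next largest.

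**Figure D1:**
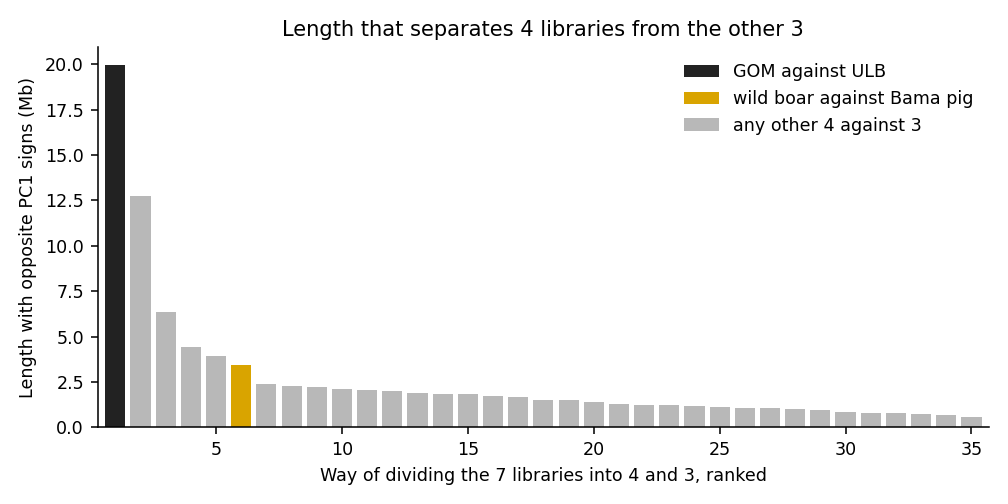
Length of sequence (Mb, y axis) over which 4 libraries all had 1 PC1 sign and the other 3 all had the opposite sign, for the 35 ways to divide the libraries, ranked from the largest (x axis). The black bar is GOM against ULB at 19.94 Mb, the yellow bar is wild boar against Bama pig at 3.44 Mb, and grey bars are the other ways.

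The next largest length, 12.74 Mb, arose when the library of wild boar GOM replicate 1 was put with the 3 ULB libraries. In these bins this library alone broke the rule, and they are 637 of the 2783 bins that missed the rule by a single library. The Bama pig ULB library alone broke it in 601 bins and wild boar ULB replicate 2 in 552. Without wild boar GOM replicate 1 the 637 bins are added. The differing length was then 32.68 Mb, of which 14.74 Mb were A in GOM and 17.94 Mb A in ULB. Leaving out any other library gave 22.18 to 31.94 Mb. With 6 libraries the test cannot reach a p of 0.05, so these are values only.

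Most of the genome kept its compartment. PC1 was positive in all 7 libraries over 42% of the length and negative in all 7 over 43%. The remaining 15.06% had mixed signs, and the bins that followed the depots were 6% of that mixed length. The share of the genome in A ranged from 48.61% to 50.69% and did not differ detectably between depots (GOM 49.58% ± 0.82, SD, n = 4, and ULB 49.57% ± 0.84, SD, n = 3, exact permutation test, two-sided, p = 1).

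Member bins have PC1 on both sides of 0, so the rule itself draws their mean over the 7 libraries towards 0. Their largest absolute mean PC1 over the 7 libraries was 20.4, and the median absolute mean PC1 of all bins was 23.9. Just inside the rule, the library nearest to 0 had a median absolute PC1 of 1.17 and a lowest of 0.0005. Just outside it, the single library of the wrong sign had a median absolute PC1 of 3.01. When every library had to exceed an absolute PC1 of 10, 0.04 Mb remained (0.02 Mb in each direction). The median absolute difference between depot means was 12.52 in member bins and 3.75 in all bins, and the rule favours a larger value in member bins.

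The whole profile was also compared between libraries, on the same PC1 values that the rule used. Pearson's r of PC1 between libraries, across bins, averaged 0.9767 over the 9 pairs from the same depot and 0.9629 over the 12 pairs from different depots. The difference of 0.0139 was the largest of the 35 ways (exact permutation test, one-sided p = 0.0286). It rests on the same libraries and labellings as the length, so it is not separate evidence. The result with chromosome 10 included is given further below. The ranges overlapped, from 0.9689 to 0.9821 within depots and from 0.949 to 0.9752 between them. Among pairs from different depots, wild boar GOM replicate 1 and wild boar ULB replicate 2 were the most alike at 0.9752.

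Neighbouring member bins of 1 direction formed 332 GOM-A runs and 325 ULB-A runs. A single bin made up 76.2% of GOM-A runs and 73.5% of ULB-A runs, 74.9% together. In the other 34 ways of dividing the libraries 81.1% to 100% of runs were single bins. The share of single bins rests on the same PC1 signs as the length and was 81.1% and 90.7% in the ways with the next largest lengths (12.74 and 6.38 Mb), so no test of it is given. Runs of 3 or more bins numbered 32 in GOM-A and 36 in ULB-A and covered 2.9 Mb and 3.32 Mb.

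About as many runs of each direction sat at a border between constant A and constant B (182 GOM-A and 169 ULB-A). The islands differed more in number. Of the GOM-A runs, 126 lay inside A, where the ULB libraries fell to B, and 24 lay inside B. Of the ULB-A runs, 55 lay inside A and 101 inside B, where the ULB libraries rose to A. This contrast of 48.7 percentage points in the share of islands inside A was matched or exceeded in 7 of the 35 ways (exact permutation test, two-sided p = 0.2). It was therefore within the background of this design.

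GOM-A bins had a mean GC content of 43.13% and ULB-A bins of 39.58%, against 45.22% where all libraries were A and 38.66% where all were B. The gap of 3.55 percentage points was also within the background (9 of 35 ways, exact permutation test, two-sided p = 0.2571, range of the others −5.16 to 4.92). The correlation of PC1 with GC across bins was 0.5424 to 0.5621 in the GOM libraries and 0.5274 to 0.5388 in the ULB libraries, and these ranges did not overlap (exact permutation test, two-sided p = 0.0286). It is computed from the same PC1 values that the rule used. The correlation of PC1 with the capped number of start sites per bin did overlap, at 0.2677 to 0.2814 in GOM and 0.2644 to 0.2775 in ULB. Start sites of RefSeq protein-coding genes were sparse in member bins, at 5.89 per Mb in GOM-A and 4.26 per Mb in ULB-A, against 14.6 in constant A and 3.04 in constant B. The edges of topologically associating domains, as listed by the authors from pooled libraries, lay within 40 kb in all 4 of their lists for 22.2% of GOM-A bins, 19.2% of ULB-A bins and 20.2% of all bins.

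Chromosome 8 held 14.4% of the differing length and 6.3% of the length examined. There 2.26 Mb were A in ULB and 0.62 Mb were A in GOM. Chromosome 2 had the reverse balance, with 1.38 Mb A in GOM and 0.46 Mb A in ULB. Chromosomes 12, 17 and 18 had the smallest shares, with 0.19%, 0.41% and 0.21% of their lengths. Of the GOM-A bins on chromosome 8, 7 carried the same 7 PC1 values as other bins of that chromosome, a filled-in value, and without all 207 such bins of the genome the differing length was 19.8 Mb.

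**Figure D2:**
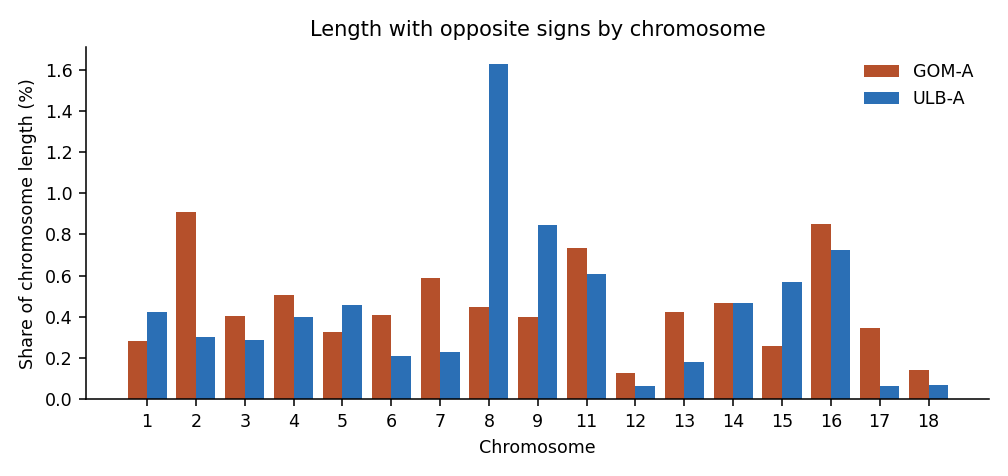
Share of each chromosome's length (%, y axis) that was A in GOM and B in ULB (brown) or A in ULB and B in GOM (blue), for the 17 autosomes examined (x axis). The tallest bar is ULB-A on chromosome 8 (2.26 Mb of 138.97 Mb), and the tallest GOM-A bar is on chromosome 2 (1.38 Mb of 151.94 Mb).

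The longest runs are given with their genes. The longest of all was ULB-A, 320 kb at chr8:133220001-133540000, over the start site of ARHGAP24 (132761967 to 133506065, minus strand), which encodes a GTPase-activating protein that restrains Rac. Its mean PC1 was −14.22, −12.56, −17.53 and −23.5 in the GOM libraries and 21.58, 10.78 and 8.44 in the ULB libraries. Here and throughout, values per library are given for wild boar replicates 1 and 2 and then for Bama pig. A second ULB-A run of 120 kb at chr8:133060001-133180000 lay in the same gene, with a mean difference of −30.5. The other long ULB-A runs were 180 kb overlapping AFF3 (chr3:54560001-54740000), 160 kb holding DDI1 and reaching PDGFD, a platelet-derived growth factor (chr9:34420001-34580000), and 2 with no annotated protein-coding gene, 160 kb at chr16:49600001-49760000 and 140 kb at chr8:98900001-99040000.

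Among the ULB-A runs of at least 3 bins with the largest differences was chr4:101880001-101940000 (60 kb, mean difference −24.08). It holds the start site of TBX15, a T-box factor of trunk and limb mesoderm that is known as a marker of subcutaneous fat. PC1 at the TBX15 start site was −9.52, −22.18, −19.57 and −19.11 in GOM and 14.35, 4.72 and 5.4 in ULB, an order that the member rule requires. TBX15 was not matched by symbol to the expression tables and has no expression value here. A run of 60 kb overlapping LAMA2, a laminin chain of the muscle and fat basement membrane, followed at a mean difference of −23.27 (chr1:34140001-34200000).

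The longest GOM-A run, 260 kb at chr16:53860001-54120000, held the start site of FAM196B and overlapped DOCK2, a regulator of Rac in blood cells. The second was 180 kb at chr2:28300001-28480000 around WT1, and the third 140 kb at chr16:55480001-55620000 around WWC1. Runs of 120 kb each overlapped MEIS1, a homeobox cofactor (chr3:75500001-75620000), and OLFM4 (chr11:26260001-26380000). The largest mean difference of a GOM-A run was 33.17, over 100 kb at chr13:203220001-203320000 overlapping B3GALT5. A neighbouring run overlapping SH3BGR had a mean difference of 29.19 (chr13:203100001-203200000), and the run over CDH1 and CDH3 one of 24.4 (chr6:18100001-18200000).

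Of the RefSeq protein-coding genes, 58 had a start site in a GOM-A bin and 43 in a ULB-A bin. The expression tables, which are independent of the rule, held 33 and 24 of these by symbol. The filter on low values (TPM above 0.1 in every library of a depot) kept 29 and 20 of them. Expression is in TPM, a share of the transcripts of a library scaled by their length, and the fold changes are from edgeR's quasi-likelihood test on estimated counts with breed as a term. Over all 15738 genes tested, 2.78% were called higher and 1.55% lower in GOM (adjusted p under 0.05 and an absolute log2 fold change over 1).

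Of the 29 tested genes whose start site was A in GOM alone, 8 were called higher in GOM and 0 lower. A log2 fold change above 0 was found for 72.4% of the 29 and for 56.7% of all placed genes tested, and the median log2 fold change was 0.72 against 0.09 for all 11080 genes tested and placed on these autosomes. Of all those placed genes 3.05% were called higher and 1.65% lower. The 8 were WT1, NIPAL1, PRDM6, WWC1, CDH1, CLDN1, EMB and PGM5. Of the 29, 4 reached 10 counts in every GOM library but not in every ULB library (WT1, NIPAL1, PRDM6 and SIGLEC15). Genes that are near 0 in 1 depot alone have to differ. SIGLEC15, with 8, 8 and 35 counts in ULB, was not called (edgeR adjusted p = 0.686). Among the 23 with 10 counts in all 7 libraries, 5 were called higher and 0 lower. The count of 8 became 3 without the Bama pig ULB library, 4 without wild boar ULB replicate 2 and 5 without wild boar ULB replicate 1 or wild boar GOM replicate 1.

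WT1, a zinc-finger factor of the mesothelium and of visceral fat progenitors, had the largest PC1 difference of these genes (chr2:28411467-28456007). Its start-site PC1 was 19.94, 20.97, 25.64 and 35.64 in the GOM libraries and −5.41, −7.61 and −11.81 in the ULB libraries. Its level was 72.9, 19.88, 83.74 and 46.07 TPM in the 4 GOM libraries and 0, 0.1 and 0.25 TPM in the 3 ULB libraries. The depots did not overlap in TPM, and the log2 fold change was 8.77 (SE 0.76, edgeR adjusted p = 0.000405). In PC1 the member rule leaves no overlap.

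CDH1 encodes E-cadherin, the adhesion protein of epithelial junctions (chr6:18075487-18155986). Its PC1 was 15.63, 5.64, 12.37 and 21.5 in GOM and −8.18, −6.28 and −14.29 in ULB. Its level was 23.44, 16.66, 30.98 and 15.84 TPM in GOM and 4.87, 0.36 and 0.59 TPM in ULB. Every GOM library was above every ULB library, with wild boar ULB replicate 1 the highest of ULB, and the log2 fold change was 3.65 (SE 0.8, edgeR adjusted p = 0.0327). CLDN1, the tight-junction protein claudin 1, had PC1 of 4.23, 6.66, 2.77 and 2.83 in GOM and −8.39, −5.39 and −17.35 in ULB. It stood at 97.79, 14, 24.93 and 22.42 TPM in GOM and 5.65, 6.06 and 3.41 TPM in ULB (log2 fold change 2.96, SE 0.56, edgeR adjusted p = 0.0169). Its highest value, in wild boar GOM replicate 1, was far above the other GOM libraries. TJP1, the scaffold protein ZO-1 of the same junctions, was A in all GOM libraries (4.2, 2.13, 1.89 and 20.3) and B in all ULB libraries (−13.05, −10.27 and −8.29). Its expression did not pass the test, at 52.98 to 197.01 TPM in GOM and 39.98 to 67.11 TPM in ULB (log2 fold change 0.98, SE 0.41, edgeR adjusted p = 0.21).

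WWC1, also called KIBRA, is an upstream member of the Hippo growth pathway. PC1 at its start was 5.08, 1.99, 10.39 and 8.48 in GOM and −14.29, −12.11 and −16.03 in ULB. Its level was 22.28, 9.38, 11.9 and 12.57 TPM in GOM and 0.88, 0.6 and 0.99 TPM in ULB (log2 fold change 3.98, SE 0.46, edgeR adjusted p = 0.00158), with no overlap. NIPAL1, a magnesium transporter, had PC1 of 10.63, 10.19, 11.02 and 15.78 in GOM and −2.38, −1.46 and −3.68 in ULB. It was at 11.74, 3.19, 5.9 and 5.3 TPM in GOM and 0.26, 0.33 and 0.2 TPM in ULB (log2 fold change 4.69, SE 0.53, edgeR adjusted p = 0.00137). PRDM6, a chromatin repressor known from smooth muscle, had PC1 of 7.68 to 9.5 in GOM and −6.01 to −0.76 in ULB, and was at 1.18 to 3.61 TPM in GOM and 0 to 0.2 TPM in ULB (log2 fold change 4.6, SE 0.86, edgeR adjusted p = 0.0164).

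The other GOM-A genes with large PC1 differences were not called in expression. ROR2, a receptor for WNT5A, had a PC1 difference of 18.22, with 1.97 to 14.03 TPM in GOM and 0.78 to 2.97 TPM in ULB (edgeR adjusted p = 0.146). GRAMD1B, a cholesterol transfer protein, had a PC1 difference of 17.54 and an edgeR adjusted p of 0.534. ZNF331, a zinc-finger protein, and PRRG4, a membrane protein, had PC1 differences of 16.08 and 14.94 and edgeR adjusted p of 0.799 and 0.689. PRRG4 shares its start-site bin with CCDC73.

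The expression calls differed in how they stood up to leaving out a library. WT1, NIPAL1 and WWC1 passed the edgeR test without any single library. CDH1 did not pass without wild boar GOM replicate 1 (edgeR adjusted p = 0.0753), wild boar GOM replicate 2 (0.0554) or the Bama pig ULB library (0.167). CLDN1 did not pass without any of the ULB libraries in turn (edgeR adjusted p = 0.0636 to 0.0744), nor PRDM6 without wild boar ULB replicate 2 (0.0671) or Bama pig ULB (0.073).

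Markers of mesothelium moved with these genes. Of 12 listed markers (WT1 among them), 6 were measured and 5 tested, and 4 were higher in GOM (WT1, KRT8, UPK1B and BNC1). Over all genes tested, 2.78% were called higher. WT1, UPK1B and BNC1 passed the filter on low values through GOM alone, and genes measurable in 1 depot alone have to differ. KRT18, the other tested marker, was not called (log2 fold change 0.11, edgeR adjusted p = 0.953). The summed level of the 6 measured markers was 171.94 to 570.36 TPM in GOM and 3.48 to 20.8 TPM in ULB. CALB2 was listed at 0 in 3 of the 4 GOM libraries and in the Bama pig ULB library. The part of mesothelial cells in the compartment and expression differences was not tested, and in bulk samples fewer cells of a type and less RNA per cell cannot be told apart. T cell markers also moved with the depot. The summed level of the 5 measured was 15.69 to 47.41 TPM in GOM and 10.82 to 11.93 TPM in ULB with no overlap, the median log2 fold change was 1.68, and 1 of the 5 was called (CD2). Their part in the differences was not tested. The adipocyte list overlapped between depots (12703.8 to 22331.7 TPM in GOM and 17286.6 to 26179.1 TPM in ULB). Wild boar ULB replicate 1 also stood apart with 290.86 TPM of skeletal muscle markers against 2.03 to 6.41 TPM in the other libraries, and the count without it is given above. The liver list was at 1281.15 and 493.39 TPM in the Bama pig GOM libraries against 169.83 to 251.46 TPM in the other 5, with albumin (ALB) at 873.47 and 292.99 TPM in Bama pig GOM, 77.67 TPM in Bama pig ULB and 1.95 to 6.6 TPM in wild boar. Without the higher of these libraries, Bama pig GOM replicate 2, 9 GOM-A genes were called higher.

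**Figure D3:**
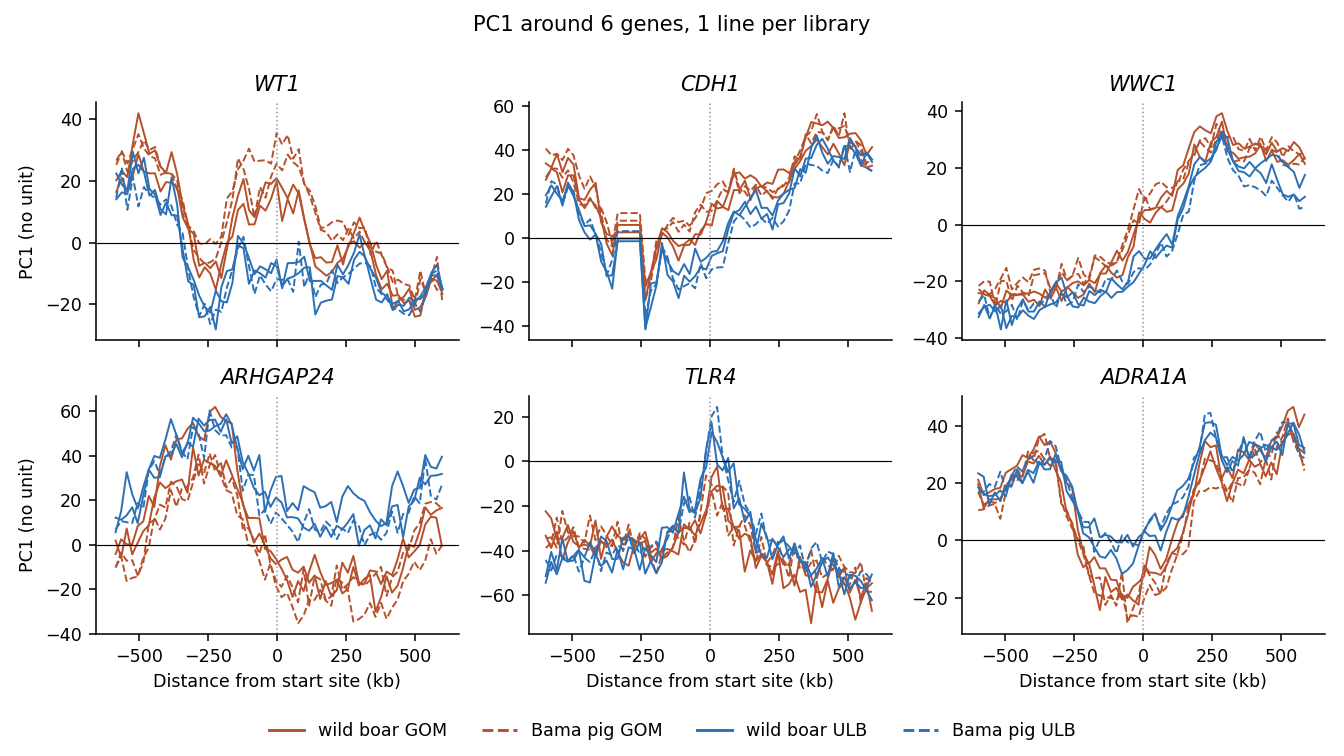
PC1 (no unit, y axis) in 20 kb bins against distance from the start site (kb, x axis, transcription to the right) for the 3 genes with an expression value and the largest PC1 difference in each direction, with 1 line per library. Around WT1, CDH1 and WWC1 the brown GOM lines lie above 0 at the start site and the blue ULB lines below, and around ARHGAP24, TLR4 and ADRA1A the order is the reverse; the flat stretch left of CDH1 is a shared, filled-in value.

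Of the 20 tested genes whose start site was A in ULB alone, 3 (15%) were called lower in GOM (PHGDH, PCDH17 and IRX1) and 1 (5%) higher (CASP1), against 1.65% and 3.05% of all placed genes. A log2 fold change above 0 was found for 20% of the 20 and for 56.7% of all placed genes, and the median log2 fold change was −0.64. IRX1 and KCNA1 reached 10 counts in every ULB library but not in every GOM library. Among the 17 genes with 10 counts in all 7 libraries, 2 were called lower and 1 higher. Without the Bama pig ULB library the count of genes called lower was 1, and without wild boar ULB replicate 1 it was 2.

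IRX1 is an Iroquois homeobox factor that patterns trunk tissue (chr16:77695704-77701089). Its PC1 was −1.48, −7.43, −2.05 and −1.69 in GOM and 9.74, 5.68 and 1.78 in ULB. This PC1 difference did not pass the limma test that is described below (adjusted p = 0.119). It was at 0.11, 0.88, 0.05 and 0 TPM in GOM and 10.59, 8.25 and 7.54 TPM in ULB, with no overlap (log2 fold change −5.12, SE 0.89, edgeR adjusted p = 0.0119, and 0.0903 without the Bama pig ULB library). PHGDH, the first enzyme of serine synthesis, had PC1 of −7.14, −13.51, −1.47 and −9.33 in GOM and 3.13, 5.96 and 5.16 in ULB (chr4:101445977-101478144). Its level was 5.98, 4.82, 1.44 and 3.19 TPM in GOM and 60.75, 61.92 and 14.32 TPM in ULB (log2 fold change −3.22, SE 0.31, edgeR adjusted p = 0.000683). The Bama pig ULB library was the lowest of ULB and still above every GOM library, and the call held without any single library.

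PCDH17, a protocadherin, had PC1 of −9.05 to −0.53 in GOM and 3.53 to 7.33 in ULB. Its level was 5.8, 3.44, 7.19 and 3.91 TPM in GOM and 17.01, 12.27 and 17.44 TPM in ULB (log2 fold change −1.76, SE 0.3, edgeR adjusted p = 0.0109, and 0.123 without Bama pig ULB and 0.0536 without wild boar ULB replicate 1). CASP1, the inflammatory caspase, ran the other way in its measures. It was B in all GOM libraries (−4.48, −6.67, −6.3 and −16.42) and A in all ULB libraries (10.65, 1.79 and 4.73), but stood at 20.18, 7.22, 13.1 and 22.98 TPM in GOM and 3.31, 2.25 and 1.04 TPM in ULB (log2 fold change 2.86, SE 0.53, edgeR adjusted p = 0.0158). The CASP1 call was lost without wild boar GOM replicate 1 (0.0748), wild boar ULB replicate 2 (0.0639) or Bama pig ULB (0.11, edgeR adjusted p).

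Among ULB-A genes with an expression value, those with the largest PC1 differences were not called. TBX15 (−25.75), DDI1 (−22.77) and KCNA6, a potassium channel (−19.62), were not matched to the expression tables and were not tested. ARHGAP24 had a start-site PC1 of −6.28, −8.65, −16.15 and −18.53 in GOM and 30.57, 21.29 and 14.55 in ULB. Its level was 10.23 to 15.19 TPM in GOM and 14.56 to 19.36 TPM in ULB, which overlap (log2 fold change −0.5, SE 0.25, edgeR adjusted p = 0.287). TLR4, the receptor for bacterial lipopolysaccharide, had PC1 of −7, −13.48, −10.49 and −12.92 in GOM and 13.02, 17.36 and 20.17 in ULB. It stood at 26.4 to 35.36 TPM in GOM and 29.96 to 44.23 TPM in ULB (log2 fold change −0.3, SE 0.23, edgeR adjusted p = 0.482). ADRA1A, the alpha-1A adrenergic receptor, had a PC1 difference of −15.93, with 1.08 to 4.16 TPM in GOM and 3.85 to 9.21 TPM in ULB (edgeR adjusted p = 0.114).

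The remaining genes picked for their PC1 difference in ULB-A bins were 2 potassium channel genes and a metabolite receptor. KCNA1 had a PC1 difference of −12.47 and KCNE4 one of −10.87, with edgeR adjusted p of 0.515 and 0.168. SUCNR1, the succinate receptor, had a PC1 difference of −11.35 and an edgeR adjusted p of 0.472. No log2 fold change of these 3 passed the test.

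Shifts of PC1 that need not cross 0 were tested bin by bin with limma, with breed as a term. At an adjusted p under 0.05, PC1 was higher in GOM in 2375 bins (2.16%) and lower in 2916 bins (2.66%). Of these 5291 bins, 61.6% kept 1 compartment in all 7 libraries. Of the whole length examined, 42% was A throughout, 43% was B throughout and only 15.06% had mixed signs. Called bins thus kept 1 compartment less often than bins at large. Of the 492 GOM-A bins 253 were called higher, and of the 505 ULB-A bins 293 were called lower, so many member bins did not pass. Bins that were A throughout made up 34.7% of the higher bins and 12.7% of the lower bins, and bins that were B throughout made up 26.6% and 49.1%. Without the Bama pig ULB library limma called 0 bins (smallest adjusted p = 0.0623, and 15198 bins at an unadjusted p under 0.05, against 24467 with it). Leaving out any other library left 1156 to 4972 bins.

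Called bins formed 77 runs of 10 bins or more, 34 higher and 43 lower in GOM. The genes named in this paragraph were chosen after the runs were seen. Runs of 50 bins, 1000 kb each, lay at chr4:101840001-102840000 (TBX15 and SPAG17, mean difference −27.94) and at chr6:5100001-6100000 (CDH13, the adiponectin-binding T-cadherin, −24.74). Other long runs lower in GOM held FGF10, a growth factor of limb and fat development (chr16:28380001-29140000, −17.02), and PRRX1, a homeobox factor of limb and dermal mesenchyme (chr4:80280001-80920000, −18.58). Long runs higher in GOM held HAND2 (chr14:16020001-16600000, 19.46), ALDH1A2 (chr1:113840001-114360000, 29.5), GPM6A (chr15:38120001-38580000, 24.63) and GATA6 (chr6:106920001-107360000, 17.13). ALDH1A2 makes retinoic acid and is a mesothelial enzyme.

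Expression at start sites in limma-called bins moved with PC1. With a start site in a bin higher in GOM, 151 genes were tested, 42 were called higher and 0 lower, and the median log2 fold change was 0.66. Of all placed genes tested, 3.05% were called higher and 1.65% lower, with a median of 0.09. With a start site in a bin lower in GOM, 106 genes were tested, 21 were called lower and 2 higher (CASP1 and SERPINB2), and the median was −0.66. The genes of both directions include some near 0 in 1 depot, such as WT1 and EN1, and genes measurable in 1 depot alone have to differ. The counts of 42 and 21 became 26 and 9 without the Bama pig ULB library in the expression test. Without wild boar GOM replicate 2 and without wild boar ULB replicate 1 the count of 21 became 13 and 12. The shift was also seen where the compartment stayed the same. In bins A throughout and higher in GOM, 12 of 96 tested genes were called higher and 0 lower. In bins A throughout and lower in GOM, 3 of 38 were called lower and 0 higher. In bins B throughout and higher in GOM, 5 of 13 were called higher and 0 lower. In bins B throughout and lower in GOM, 8 of 21 were called lower and 1 higher.

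Read from the expression side, 338 placed genes were called higher in GOM and 183 lower. PC1 at the start site was higher in GOM for 79.3% of the first and 26.8% of the second, against 53.5% of all 11080 tested and placed genes. The median PC1 difference was 3.87, −4.16 and 0.35 in this order. Most called genes lay outside member bins, as did most tested genes. Of the 338, 8 had a start site in a GOM-A bin, and of the 183, 3 had one in a ULB-A bin. Of all 11080 tested and placed genes, 29 lay in GOM-A bins and 20 in ULB-A bins. Across genes, which are not independent replicates, PC1 difference and log2 fold change had a Pearson's r of 0.26 and a Spearman's rho of 0.2.

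**Figure D4:**
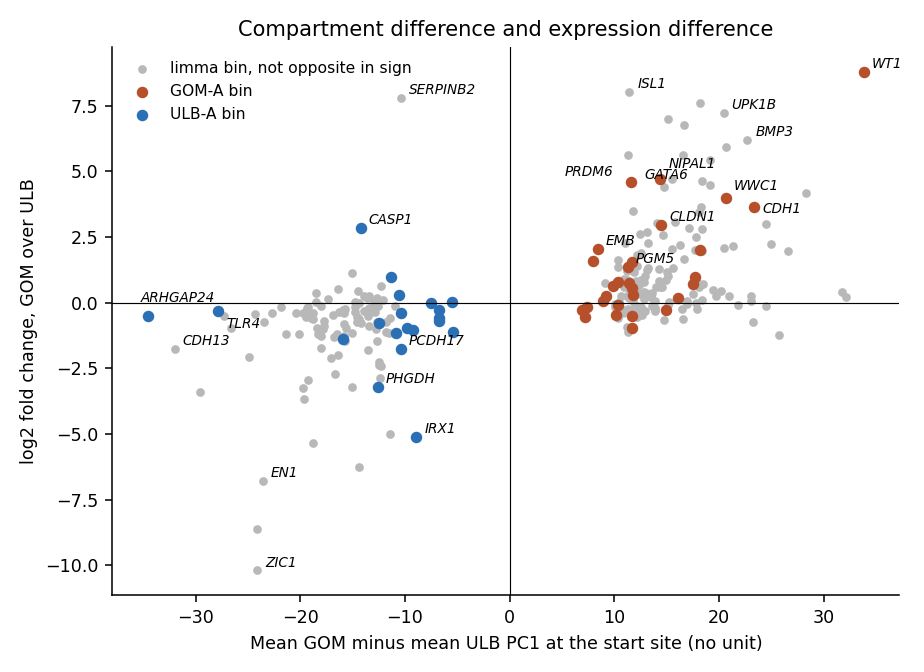
Log2 fold change of expression (GOM over ULB, y axis) against the PC1 difference at the start site (mean GOM minus mean ULB, x axis), 1 point per tested gene with a start site in a member bin (brown GOM-A, blue ULB-A) or in another limma-called bin (grey). Most points lie in the upper right and lower left, with CASP1 and SERPINB2 in the upper left; ZIC1 and ZIC4 are at 0 in every GOM library, so their plotted values depend on the prior count.

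Regional transcription factors were examined as 2 lists. Of 10 visceral factors, 8 were tested for expression and 5 were higher in GOM, 0 lower, with a median log2 fold change of 5.05. Over all genes tested, 2.78% were called higher and 1.55% lower. WT1, BNC1, TCF21 and HAND2 passed the filter on low values through GOM alone, and genes measurable in 1 depot alone have to differ. Limma called PC1 higher in GOM at 3 of their 10 start sites (WT1, GATA6 and HAND2) and lower at 0. GATA6, a factor of visceral mesoderm, had PC1 of 21.93, 18.27, 24.31 and 24.49 in GOM and 8.34, −0.46 and 1.37 in ULB (limma difference 18.91, SE 3.09, adjusted p = 0.0116). It was at 21.66 to 42.5 TPM in GOM and 0.83 to 1.94 TPM in ULB (log2 fold change 4.47, SE 0.33, edgeR adjusted p = 0.000146). HAND2, a factor of heart and lateral mesoderm, had PC1 of −7.08, 1.66, −4.15 and 0.1 in GOM and −13.6, −22.2 and −21 in ULB, so it lay near 0 in GOM and well inside B in ULB (limma difference 16.71, SE 3.31, adjusted p = 0.0221). HAND2 was at 10.83 to 26.37 TPM in GOM and 0 to 0.95 TPM in ULB (log2 fold change 5.63, SE 0.82, edgeR adjusted p = 0.00547). BNC1, a zinc-finger factor of mesothelium and skin, was higher in expression (log2 fold change 7.65, SE 0.8, edgeR adjusted p = 0.001), but its PC1 did not pass limma (adjusted p = 0.0835). TCF21, a factor of visceral mesenchyme, had 137, 63, 144 and 115 counts in GOM and 0, 1 and 0 in ULB (edgeR adjusted p = 0.00109), and its PC1 did not pass limma either (adjusted p = 0.105).

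The 15 subcutaneous patterning factors ran in the opposite direction. Of the 11 tested, 8 were lower in GOM and 0 higher, with a median log2 fold change of −3.66. Over all genes tested, 1.55% were called lower and 2.78% higher. EN1, SIM1, TBX5, IRX1 and IRX2 passed the filter on low values through ULB alone, so the same limit holds for them. Limma called PC1 lower in GOM at 2 of the 14 start sites matched to the expression tables (EN1 and IRX5) and higher at 0. EN1, a homeobox factor of the dorsal skin and trunk, had PC1 of 4, 5.03, −2.77 and −3.52 in GOM and 26.56, 21.5 and 24.75 in ULB (limma difference −22.87, SE 2.89, adjusted p = 0.00609). Its counts were 1, 0, 3 and 0 in the GOM libraries and 152, 65 and 79 in the ULB libraries (log2 fold change −6.78, SE 0.82, edgeR adjusted p = 0.00197). IRX5 had PC1 of −15.33, −14.23, −12.54 and −19.6 in GOM and 9.34, −1.84 and 5.1 in ULB, missing the member rule through wild boar ULB replicate 2 (limma difference −19.59, SE 3.31, adjusted p = 0.013). It was at 0.13 to 0.47 TPM in GOM and 2.75 to 3.99 TPM in ULB (log2 fold change −3.66, SE 0.6, edgeR adjusted p = 0.00917, and 0.107 without the Bama pig ULB library). None of the limma calls in these lists held without that library.

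**Figure D5:**
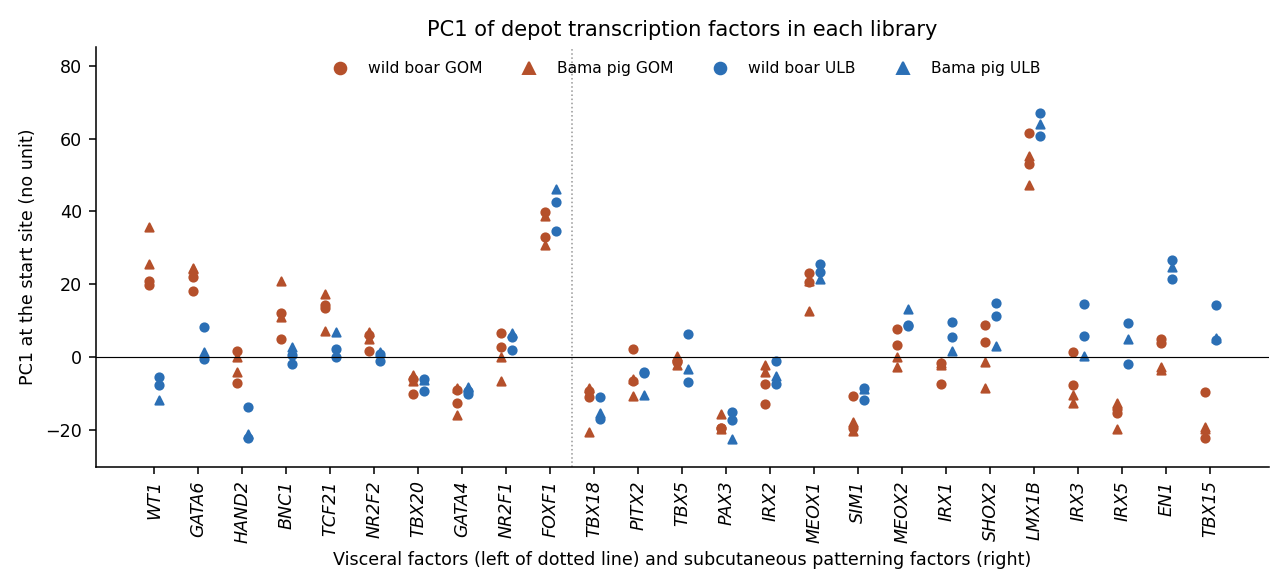
PC1 (no unit, y axis) at the start sites of 10 visceral factors and 15 subcutaneous patterning factors (x axis), 1 point per library, with circles for wild boar, triangles for Bama pig, brown for GOM and blue for ULB. Brown points lie above blue points with no overlap for WT1, GATA6, HAND2, BNC1, TCF21 and NR2F2, and below them for IRX1, IRX5, EN1, MEOX2 and TBX15. At WT1, IRX1 and TBX15 the member rule fixes this order.

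The depot difference was next read in 1 breed with bins chosen in the other. Of 1152 bins that were A in GOM and B in ULB in wild boar, 88.1% had a higher mean PC1 in GOM in Bama pig, against 49.7% of all bins. Of 1101 bins with the opposite signs in wild boar, 85.6% had a lower mean PC1 in GOM in Bama pig, against 50.3% of all bins. Chosen in Bama pig and read in wild boar, the shares were 84.1% of 2955 bins (background 51.5%) and 82.1% of 2673 bins (background 48.5%). Bama pig has 1 ULB library, which enters either the choice or the reading, and bins next to each other are not independent, so no test is given.

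Within breeds the rule gave 45.04 Mb in wild boar (2 libraries against 2) and 112.56 Mb in Bama pig (2 against 1), and a rule over fewer libraries is met by more bins. In limma 0 bins passed the test for a depot difference that differed between breeds (5039 at an unadjusted p under 0.05), and in edgeR 0 genes passed it (730 at an unadjusted p under 0.05). These counts rest on a single Bama pig ULB library.

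When bins were ranked by the depot difference alone, the top 1% (1098 bins) ran from 16.13 to 45.46 and the bottom 1% from −39.06 to −17.09. Of the 1098 bins at each end, 124 of the top were GOM-A and 117 of the bottom were ULB-A. Over all bins, 0.448% were GOM-A and 0.46% ULB-A. The ranking and the rule use the same PC1 values, so this overlap is a description. Chromosome 1, where PC1 varied most, held 38.9% of the top and 31.8% of the bottom bins and 12.5% of the length examined. After PC1 was divided by its SD on each chromosome, 63.8% of the top and 62.1% of the bottom bins were kept, as a share of each list of the same size.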

How the data were processed

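Hi-C was done in situ with MboI and RNA-seq on rRNA-depleted total RNA. For Hi-C, the authors aligned reads to Sscrofa 11.1 with BWA in Juicer, normalised the contact matrices by KR and between libraries, and deposited a score per 20 kb bin and library, PC1 of the observed over expected contacts. The files are named as A-B indices but hold PC1. They carry no read numbers, so the depth behind a bin is unknown here. The authors called topologically associating domains on pooled libraries and deposited their positions. For RNA-seq, the authors quantified genes with kallisto (version 0.43.0 per the labels; the methods name another version) on Ensembl transcripts. An estimated count and a TPM value for each gene were deposited per library. Estimated counts summed to 10833153 to 18627076 per library and were rounded to whole numbers. Groups came from the labels. Replicates are separate samples, and which libraries of the depots came from the same animal is not stated.

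The member bins, gene lists and named genes were chosen with earlier results of these data known. Genes were kept with TPM above 0.1 in every library of at least 1 depot and placed by symbol in RefSeq (13693 of 21280). edgeR 4.0.16 (quasi-likelihood, TMM) and limma 3.58.1, in R 4.3.3, had breed as a term, with Benjamini-Hochberg adjustment over all features. The edgeR SE is the log2 fold change over the root of its F. Exact permutation tests went through every labelling with numpy 2.4.6 in Python 3.11.15, where scipy 1.17.1, pandas 2.3.3 and matplotlib 3.10.9 were also used. DESeq2 1.42.0 was an alternative. Both fits were tested on simulated data. Genes were named as up to 8 per direction by PC1 difference (1 per run), up to 6 per direction by fold change among called genes, list genes in member bins, and the genes of the 5 longest runs and the 5 runs with the largest difference per direction. Genes named from limma runs were chosen after their values were seen. Alternatives changed the PC1 cutoff, run length, scaling, filter, breed term, tool, pairing and library set.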

Additional observations from a re-analysis of the deposited data

Results flagged for a closer look

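Of 43 groups of 4 GOM values examined, 6 held 1 library far from the other 3 relative to the range of the group, and chance marks about 1 group in 20. In Bama pig GOM replicate 2, PC1 at the start sites stood above the other GOM libraries for NIPAL1 (15.78 against 10.19 to 11.02), TJP1 (20.3 against 1.89 to 4.2) and ROR2 (18.75 against 5.55 to 7.63). In wild boar GOM replicate 1, CLDN1 was at 97.79 TPM against 14 to 24.93 TPM in the others. In wild boar GOM replicate 2, IRX1 had a PC1 of −7.43 against −2.05 to −1.48, and a level of 0.88 TPM against 0 to 0.11 TPM. For the levels of CLDN1 and IRX1, the GOM values did not overlap with the ULB libraries. For the PC1 values the member rule leaves no overlap.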

How the results depend on the processing

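The differing length was 0.04 Mb with an absolute PC1 of at least 10 in every library (exact permutation p = 0.0571, 0.02 Mb in each direction). It was 6.22 Mb in runs of at least 3 bins (2.9 Mb GOM-A, 3.32 Mb ULB-A), where the medians of GOM-A and ULB-A genes were 3.654 and −1.077 over 7 and 4 genes. In wild boar alone it was 45.04 Mb (23.02 and 22.02 Mb). Leaving out 1 library gave 22.18 to 32.68 Mb (GOM-A 11.3 to 16.22 Mb, ULB-A 10.88 to 17.94 Mb), and the smaller designs cannot reach a p of 0.05. The difference in similarity was 0.0151 on all 18 autosomes (exact permutation p = 0.0857) and 0.011 to 0.0182 without 1 library.

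Limma called 9230 bins (4467 higher in GOM) on PC1 divided by its chromosome SD and 0 to 4972 (0 to 2255 higher) without 1 library. edgeR called 682 genes (438 higher in GOM), 346 (223) without the breed term and 249 to 722 (175 to 488) without 1 library, and DESeq2 called 1363 (850). Of the edgeR calls 64.2% were higher in GOM; the share was 59.4% with upper-quartile normalization and 58.8% (without wild boar ULB replicate 2) to 70.3% (without Bama pig ULB replicate 2) without 1 library. Genes higher in GOM at GOM-A start sites numbered 5 without the breed term and 3 to 9 without 1 library, and those lower at ULB-A start sites 1 to 3. At limma-called start sites 26 to 45 were higher and 9 to 20 lower. These 4 counts were added after seeing the data. Bins carried from wild boar to Bama pig at 81.2% to 88% (GOM-A) and 78.1% to 85.6% (ULB-A), and the other way at 77.3% to 83.7% and 74.3% to 84.1%, without 1 library.

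For the pairing of replicate numbers, deviations of wild boar libraries with the same number correlated at 0.068 in PC1 and 0.176 in expression, and the single Bama pig ULB library allowed no such check in that breed. With a replicate block limma called 3378 bins (1557 higher) and edgeR 667 genes, and the differing length over 3 pairs was 23.88 Mb (exact p = 0.25, the smallest possible).

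Log2 fold changes of 3 uncalled genes changed direction: PRRG4 ranged from −0.52 to 0.03 (the latter without wild boar ULB replicate 1), ZNF331 from −0.16 (without Bama pig ULB replicate 2) to 0.59 and GRAMD1B from −0.01 (without wild boar GOM replicate 1) to 1.39. Of 451 refits of named genes' expression, 414 kept direction and side of the threshold, as did 152 of 210 of their PC1. The causes were not tested. Depth limits the genes near 0 in 1 depot, where a few counts set the fold change.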

Other observations

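Genes of other groups, from lists fixed with earlier results known, differed between the depots without a start site in a member bin. Beside the counts below, 2.78% of all genes tested were called higher in GOM and 1.55% lower. Of 34 HOX genes, which set position along the body axis, 24 were tested. HOXB4, HOXB5, HOXB6 and HOXB8 were higher in GOM and HOXC8, HOXC9 and HOXD8 lower (edgeR). HOXB6 was at 15.94, 8.35, 28.74 and 31.41 TPM in GOM and 3.17, 3.07 and 2.17 TPM in ULB (log2 fold change 2.58, SE 0.39, edgeR adjusted p = 0.0061). HOXD8 was at 7.65 to 12.19 TPM in GOM and 52.77 to 79.12 TPM in ULB (log2 fold change −2.87, SE 0.25, edgeR adjusted p = 0.000438). PC1 at HOXD8 was 12.55 to 18.36 in GOM and 26.77 to 30.02 in ULB, so the gene lay in A throughout and deeper in A in ULB (limma difference −12.18, SE 2.68, adjusted p = 0.0309). Limma called PC1 lower in GOM at 3 of 32 HOX start sites, all in the HOXD cluster (HOXD1, HOXD3 and HOXD8), and higher at 0.

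Of 18 WNT ligands and antagonists, 15 were tested, 4 were higher in GOM (WNT5A, WNT5B, RSPO1 and DKK3) and SFRP4 was lower. RSPO1, which amplifies WNT signals, was at 18.06 to 42.35 TPM in GOM and 0.09 to 0.5 TPM in ULB (log2 fold change 7, SE 0.59, edgeR adjusted p = 0.000405). Its PC1 was 33.3 to 42.92 in GOM and 18.11 to 26.69 in ULB (limma adjusted p = 0.0226). DKK3 also rose in PC1 (limma difference 20.79, SE 3.03, adjusted p = 0.0088), with 31.16 to 85.06 TPM in GOM and 3.91 to 33.35 TPM in ULB, which overlap. At DKK2, a WNT antagonist, PC1 fell by 17.99 (SE 2.94, limma adjusted p = 0.0115) while expression did not pass (edgeR adjusted p = 0.197).

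Of 30 neuronal adhesion and guidance genes, 22 were tested, 6 were lower in GOM (ROBO2, SEMA3A, SEMA3E, UNC5D, CDH18 and OPCML) and 0 higher. PC1 was called lower at SEMA3A and CNTN3 and higher at SLIT3. SEMA3A, a secreted axon repellent, was at 0.62 to 1.51 TPM in GOM and 5.09 to 12.15 TPM in ULB (log2 fold change −2.71, SE 0.45, edgeR adjusted p = 0.00976), and was B throughout. Of 3 listed genes of a depot contrast, ERBB4 was higher in GOM (log2 fold change 3.04, edgeR adjusted p = 0.00711) with a higher PC1 (limma adjusted p = 0.0418), and NEGR1 and EDIL3 were lower in expression (edgeR adjusted p = 0.0231 and 0.0426).

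Of 14 adipogenic factors 0 passed the edgeR test. PPARG, the master regulator of fat cells, lay deep in A in every library, at 29.3 to 53.27 in GOM and 56.39 to 64.71 in ULB (limma difference −20.98, SE 4.76, adjusted p = 0.034). Its level was 112.56 to 196.19 TPM in GOM and 126.32 to 215.96 TPM in ULB (edgeR adjusted p = 0.778). Of 15 tested adipocyte markers only LEP, the hormone leptin, was called, at 52.08 to 143.47 TPM in GOM and 147.17 to 254.22 TPM in ULB (log2 fold change −1.38, SE 0.33, edgeR adjusted p = 0.0465). The LEP call held without Bama pig GOM replicate 2 (0.0108) and was lost without each other library in turn (0.0643 to 0.147).

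Among the markers of other cells, CD2 of the T cell list (log2 fold change 1.68, edgeR adjusted p = 0.0285) and MARCO of the macrophage list (5.17, edgeR adjusted p = 0.0158) were higher in GOM. MARCO was at 63.37 and 13.69 TPM in wild boar GOM and 3.57 and 3.48 TPM in Bama pig GOM, against 0.28 to 0.63 TPM in ULB. The B cell, endothelial, keratinocyte, liver and exocrine pancreas lists had 0 called genes in edgeR, and limma called 1 start site each in the keratinocyte list (DSG3) and the liver list (SERPINA1).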
